A study of Mus musculus with 8 samples.

Results

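The genes described here are 10 genes of the inhibitor of DNA binding (ID) family and of bone morphogenetic protein (BMP) signalling, chosen by symbol among 21240 genes in the count table. They are the 4 ID genes Id1, Id2, Id3 and Id4, the ligand genes Bmp2, Bmp4 and Bmp7, the receptor gene Bmpr1a, and the inhibitor genes Smad6 and Bambi. All 10 were found. On build GRCm38 in GENCODE M21, Id1 lies at chr2:152736251-152737410 (plus strand), Id2 at chr12:25093799-25097140 (minus), Id3 at chr4:136143497-136145755 (plus), Bmp2 at chr2:133552159-133562885 (plus) and Bmp4 at chr14:46383520-46390669 (minus), and counts are over whole genes. They were measured by RNA sequencing in NMuMG, a wild-type epithelial line derived from normal mouse mammary gland and grown in medium with serum and insulin. The cells received BRM014, which blocks the ATPases SMARCA4 and SMARCA2 of SWI/SNF chromatin remodelling complexes, or its vehicle DMSO. The 4 groups were BRM014 for 6 h, DMSO for 6 h, BRM014 for 30 h and DMSO for 30 h, each with 2 libraries, and the labels name no added BMP ligand. The 2 libraries of a group are labelled as biological replicates, but separate cultures are not mentioned, so p-values measure the spread between these libraries, which may be technical. The labels give no dose.

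BMP ligands bind type I and type II receptor kinases, which phosphorylate SMAD1, SMAD5 and SMAD9, and these enter the nucleus with SMAD4. The ID genes are among the best known direct targets of this signal in many cell types. ID proteins carry a helix-loop-helix domain but no DNA-binding region, so they pair with E proteins and other helix-loop-helix factors and keep them off the E-box sequences that these factors bind. In mammary epithelium, Id1 is known for its link to growth and Id2 for its requirement in lobulo-alveolar development.

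Promoter sequences are shown for Id2, the ID gene that fell most, and for Bmp4, the ligand gene that fell most at 6 h. They come from the 250 bases before the transcription start in RefSeq on build GRCm38.p6, whereas the submitters' processing notes name mm9 for the counts. The RefSeq starts of Id2 and Id3 lie inside the GENCODE gene spans given above, so the annotations differ on where these genes begin. GENCODE M21 marks 161 bases of the Id2 window and all 250 of the Id3 window as untranslated exon, so only the outer 89 bases are shown for Id2 and none for Id3. By GENCODE these 89 bases lie within the Id2 gene but outside its exons, so the name promoter rests on the RefSeq start alone. The Bmp4 window holds no annotated exon. Of the 10 genes, 6 were matched in the RefSeq table and used here. Capitals mark GGCGCC, a GC-rich element bound by BMP SMADs, and the E-box CANNTG, where N is any base. Both read the same on either strand, and no marked match overlapped another.
Id2 promoter, chr12:25096254-25096342, minus strand: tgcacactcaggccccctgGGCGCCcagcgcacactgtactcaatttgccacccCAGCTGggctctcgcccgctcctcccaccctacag
Bmp4 promoter, chr14:46390670-46390919, minus strand: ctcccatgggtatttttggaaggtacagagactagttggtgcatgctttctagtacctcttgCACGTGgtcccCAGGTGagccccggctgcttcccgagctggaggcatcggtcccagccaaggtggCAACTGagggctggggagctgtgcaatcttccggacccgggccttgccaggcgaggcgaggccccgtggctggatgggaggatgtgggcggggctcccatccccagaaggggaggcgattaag

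The Id2 window held 1 GGCGCC, at 231 to 226 bases before the RefSeq start, and 1 E-box, at 196 to 191 bases, both in the bases shown. The Bmp4 window held no GGCGCC and 3 E-boxes, which begin 188, 177 and 123 bases before the start. Of the other windows used, those of Id4 and Bmpr1a also held 1 GGCGCC each, and those of Id3 and Smad6 held none. Id4 was not tested, and Bmpr1a was not called at either time. Among 32851 promoter windows of this length, 9.6% held GGCGCC and 66.2% held CANNTG, so most promoters hold an E-box. The GC content of the 250 bases was 62.8% for Id2 and 63.2% for Bmp4, against a median of 52.4% over all windows. A match describes the letters only and is not evidence that a factor binds there.

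The libraries held 17859693 to 29955366 counts, and 13286 to 13922 genes had a count. Of the epithelial markers, the adhesion gene Cdh1 and the keratin genes Krt8 and Krt18 had 66275, 371703 and 564584 counts over the 8 libraries, whereas Epcam, Cldn3 and Cldn7 were listed at 0 and Cldn4 had 2 counts. The 8 epithelial markers summed to 5283 to 5746 CPM (counts scaled to library size) in BRM014 and 5205 to 5666 CPM in DMSO at 6 h, and to 6812 to 8035 CPM in BRM014 and 4384 to 4539 CPM in DMSO at 30 h. The 7 myoepithelial markers, nearly all of it Krt14, summed to 0.981 to 2.41 CPM in BRM014 and 9.36 to 13.0 CPM in DMSO at 6 h, and to 0.0978 to 0.321 CPM in BRM014 and 3.63 to 8.59 CPM in DMSO at 30 h. The 7 fibroblast markers summed to 0.718 to 0.767 CPM in BRM014 and 1.12 to 1.61 CPM in DMSO at 6 h, and to 1.12 to 1.34 CPM in BRM014 and 2.19 to 2.77 CPM in DMSO at 30 h. The 5 endothelial and 5 adipocyte markers each summed to at most 0.298 CPM in a library. The 6 immune markers summed to 3.85 to 5.33 CPM in BRM014 and 6.96 to 8.06 CPM in DMSO at 6 h, and to 2.25 to 2.35 CPM in BRM014 and 3.81 to 6.20 CPM in DMSO at 30 h. The phagocyte marker Cd68 gave 785 of these immune counts, and Lum, Cldn5 and Lep of the fibroblast, endothelial and adipocyte lists were listed at 0. The myoepithelial, fibroblast and immune sums were lower in both BRM014 libraries than in both DMSO libraries at each time, the epithelial sum was higher at 30 h, and their part in the results below was not tested.

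Of the 10 genes, 8 passed the filter on low counts and were tested. Id4 had 2 to 7 counts and Bmp7 2 to 16 counts in a library, and both stayed below the filter. Bambi passed it with 4 to 15 counts a library, so its values are imprecise. Levels are given as CPM after TMM scaling (trimmed mean of M values), and differences as log2 fold changes (± standard error) from 1 edgeR quasi-likelihood fit with 2 libraries in each group. A gene is called where its Benjamini-Hochberg adjusted p over all 11835 tested genes is below 0.05.

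**Figure D1:**
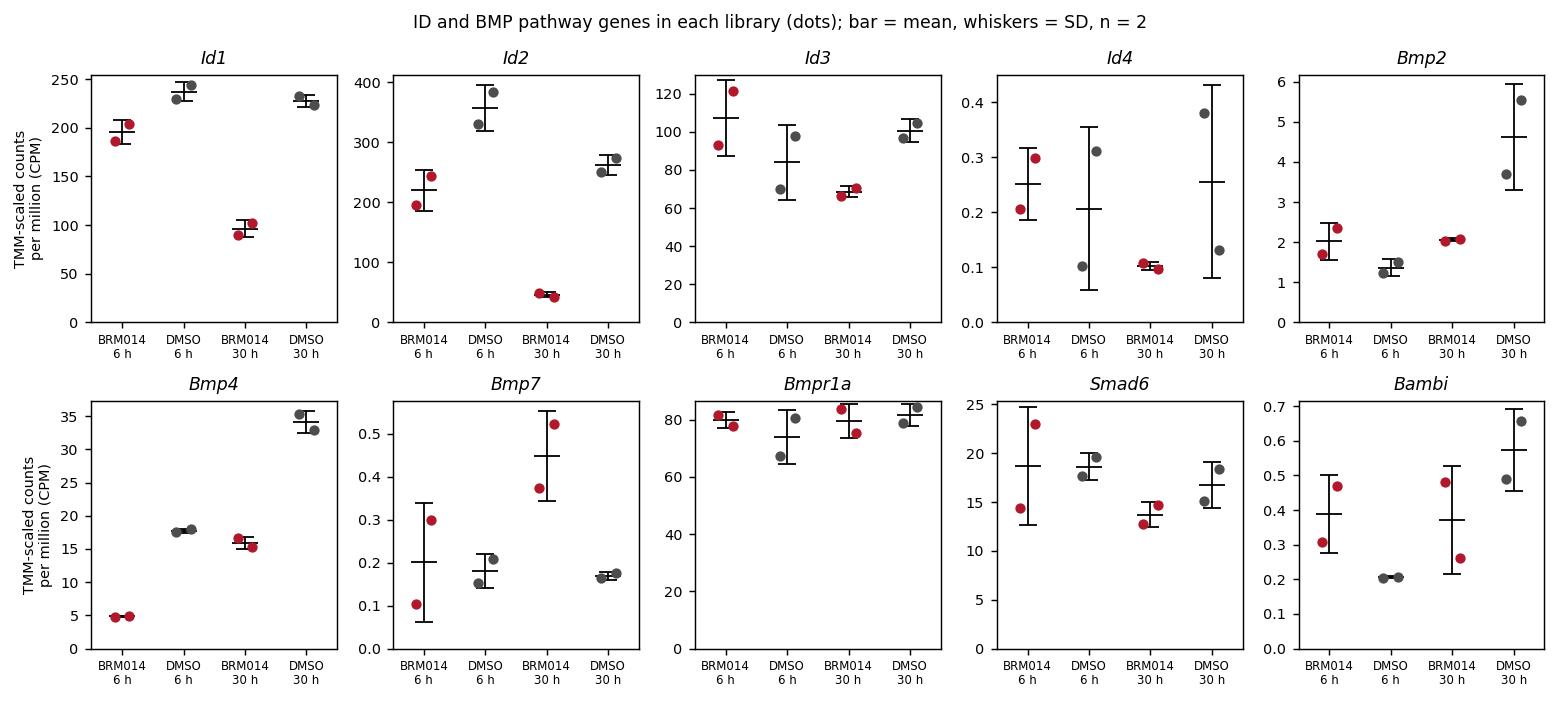
Level of each of the 10 genes in CPM (vertical axes, each from 0) in the 8 libraries (dots), with the mean and SD of the 2 libraries of a group (bars and whiskers). Id1, Id2 and Bmp4 in BRM014 at 30 h lie far below DMSO at 30 h, while Bmpr1a lies between 67.4 and 84.4 CPM in every library.

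After 6 h of BRM014, Id2 and the ligand gene Bmp4 fell, and Id1 and Id3 did not pass the test. Of the 8 tested genes, 2 were called, both lower (Id2 and Bmp4). In this comparison 23.8% of all tested genes were called, 9.35% higher and 14.4% lower, so 2 of 8 is close to that background. The median log2 fold change of the 8 genes was 0.06, against -0.01 over all tested genes.

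Id2 (Entrez 15902) was at 195 and 244 CPM in BRM014 and at 330 and 384 CPM in DMSO at 6 h. Both BRM014 libraries were below both DMSO libraries. The log2 fold change was -0.70 ± 0.12 (edgeR adjusted p = 0.000945), and the call held in all 17 alternatives. In bulk RNA, fewer cells that express a gene and less RNA per cell cannot be told apart.

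Id1 (Entrez 15901) was at 187 and 204 CPM in BRM014 and at 230 and 244 CPM in DMSO at 6 h. The groups did not overlap, but the difference was small, at -0.28 ± 0.10, and missed the threshold (edgeR adjusted p = 0.0536). It passed with DESeq2 (-0.27, adjusted p = 0.0492), with the 4 libraries of the comparison alone (-0.26, adjusted p = 0.0351), and when DMSO 30 h replicate 1 or either BRM014 30 h library was left out (adjusted p = 0.0462 to 0.0495). It also passed with the replicate number as a block in the fit (-0.28, adjusted p = 0.0279), though the labels do not pair the libraries. Id1 at 6 h is therefore a borderline result.

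Id3 (Entrez 15903) was at 93.3 and 121 CPM in BRM014 and at 70.2 and 98.0 CPM in DMSO at 6 h. The groups overlapped, and the mean was higher in BRM014 by 0.35 ± 0.15 (edgeR adjusted p = 0.111). It passed as higher without the filter on low counts (0.37, adjusted p = 0.00688) and with the replicate block (0.36, adjusted p = 0.0176). It also passed when DMSO 6 h replicate 2 was left out (0.61), and fits that left out a library spanned 0.15 to 0.61. Id4 (Entrez 15904) had 4 and 7 counts in BRM014 and 2 and 6 counts in DMSO at 6 h, too few for a comparison, and it overlaps the antisense genes A330033J07Rik and Gm49291.

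Bmp4 (Entrez 12159), the ligand gene with the highest level here, was at 4.82 and 4.95 CPM in BRM014 and at 17.54 and 17.99 CPM in DMSO at 6 h. The replicates lay close together in both groups, which were far apart. The log2 fold change was -1.86 ± 0.15, a 3.63-fold lower level (edgeR adjusted p = 1.64e-06), and the call held in all 17 alternatives. By p it ranked 69 among the 11835 tested genes. Bmp4 overlaps the antisense genes Gm15217 and Gm15222 in GENCODE M21, and the strand setting of the counts is not given, so reads from them cannot be told apart from its own.

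Bmp2 (Entrez 12156), the related ligand gene, was low, at 1.69 and 2.34 CPM in BRM014 and at 1.22 and 1.51 CPM in DMSO at 6 h (33 and 55 counts in BRM014, 24 and 29 counts in DMSO). The groups did not overlap, with BRM014 higher, but the difference of 0.58 ± 0.34 did not pass (edgeR adjusted p = 0.249). Bmp7 (Entrez 12162) had 2 and 7 counts in BRM014 and 3 and 4 counts in DMSO at 6 h.

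Bmpr1a (Entrez 12166), a type I BMP receptor gene, was at 81.8 and 78.0 CPM in BRM014 and at 67.4 and 80.7 CPM in DMSO at 6 h, with overlapping groups and a difference of 0.11 ± 0.11 (edgeR adjusted p = 0.522). It overlaps the antisense gene Gm17110. Smad6 (Entrez 17130), the inhibitory SMAD that BMP signalling itself induces in many cells, was at 14.4 and 23.0 CPM in BRM014 and at 17.6 and 19.6 CPM in DMSO at 6 h. The DMSO libraries lay between the BRM014 ones, and the difference was 0.01 ± 0.20 (edgeR adjusted p = 0.980). Bambi (Entrez 68010), which encodes a decoy receptor without a kinase domain, had 6 and 11 counts in BRM014 and 4 and 4 counts in DMSO at 6 h (0.92 ± 0.68, edgeR adjusted p = 0.370).

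After 30 h of BRM014 all 3 measurable ID genes and both measurable ligand genes were lower than in DMSO, and the receptor and inhibitor genes were not called. Of the 8 tested genes, 5 were called, all lower. In this comparison 35.9% of all tested genes were called, 16.8% higher and 19.1% lower. The median log2 fold change of the 8 genes was -0.91, against -0.00 over all tested genes. The direction of all 5 calls was the same under each scaling tried.

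Id2 was at 48.9 and 42.7 CPM in BRM014 and at 251 and 274 CPM in DMSO at 30 h. The BRM014 libraries held 914 and 1310 counts, so the low level was measured well above the counting limit. The log2 fold change was -2.52 ± 0.13, a 5.74-fold lower level (edgeR adjusted p = 1.81e-08), with rank 29 by p among 11835 genes.

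Id1 was at 89.9 and 103 CPM in BRM014 and at 232 and 223 CPM in DMSO at 30 h. The groups were well separated, by -1.24 ± 0.10, a 2.37-fold lower level (edgeR adjusted p = 7.73e-07). The calls of Id1 and Id2 at 30 h held in all 17 alternatives each.

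Id3 was at 66.5 and 70.5 CPM in BRM014 and at 96.5 and 105 CPM in DMSO at 30 h. The groups did not overlap, and the level was lower by a modest amount, with a log2 fold change of -0.55 ± 0.15 (edgeR adjusted p = 0.0113). The call ended when BRM014 30 h replicate 1 was left out (-0.51, adjusted p = 0.0731) and with scaling to ribosomal protein genes (-0.43, adjusted p = 0.0874). Id4 had 2 and 3 counts in BRM014 and 7 and 3 counts in DMSO at 30 h.

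Bmp4 was at 16.6 and 15.3 CPM in BRM014 and at 35.3 and 32.9 CPM in DMSO at 30 h, again without overlap (-1.10 ± 0.13, edgeR adjusted p = 2.29e-05), and this call held in all 17 alternatives. Bmp2 was at 2.03 and 2.09 CPM in BRM014 and at 3.70 and 5.56 CPM in DMSO at 30 h. Both BRM014 libraries were below both DMSO libraries, and the DMSO libraries were further apart from each other. The log2 fold change was -1.17 ± 0.29 (edgeR adjusted p = 0.00689), and the call ended when DMSO 30 h replicate 2 was left out (-0.84, adjusted p = 0.0859). Of the 3 ligand genes, Bmp7 alone had more counts under BRM014, with 7 and 16 counts in BRM014 and 3 and 4 counts in DMSO at 30 h. Fitted without the filter, its difference was 1.40 ± 0.89 and did not pass (edgeR adjusted p = 0.258).

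Bmpr1a was at 83.8 and 75.2 CPM in BRM014 and at 79.0 and 84.4 CPM in DMSO at 30 h, with overlapping groups (-0.04 ± 0.11, edgeR adjusted p = 0.802). The sign of this difference turned with scaling to ribosomal protein genes (0.08). Smad6 was at 12.8 and 14.7 CPM in BRM014 and at 15.1 and 18.4 CPM in DMSO at 30 h. Its groups did not overlap, but the gap was narrow and the difference of -0.29 ± 0.20 did not pass (edgeR adjusted p = 0.289). Bambi had 9 and 8 counts in BRM014 and 9 and 15 counts in DMSO at 30 h (-0.71 ± 0.55, edgeR adjusted p = 0.342).

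**Figure D2:**
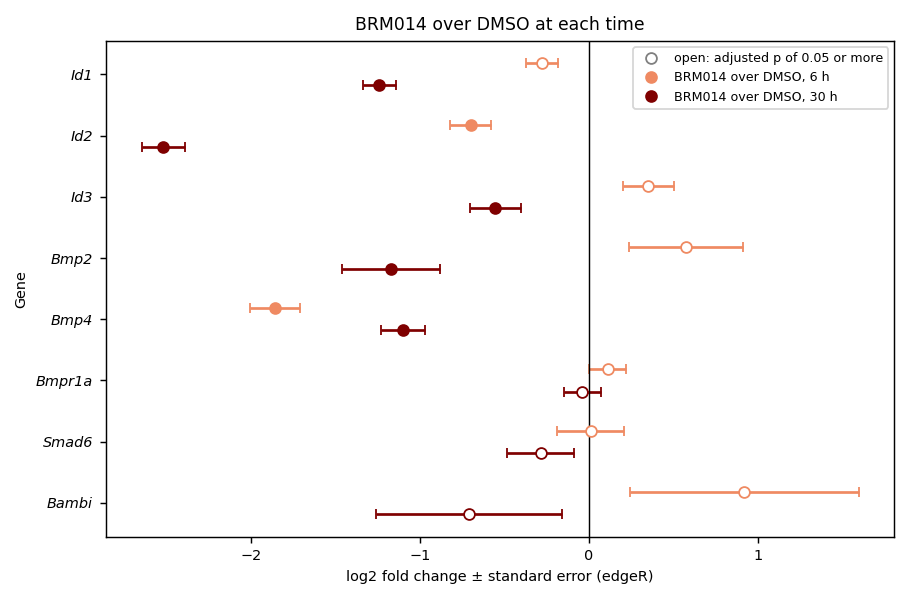
Log2 fold change of BRM014 over DMSO (horizontal axis, ± standard error of the edgeR fit) for the 8 tested genes at 6 h (light) and 30 h (dark), with filled points for adjusted p below 0.05. Id2 lies at -0.70 at 6 h and -2.52 at 30 h, while Bmp4 lies at -1.86 at 6 h and -1.10 at 30 h.

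The effect of BRM014 itself differed between the times for 5 of the 8 tested genes, of which 1 was higher and 4 lower, where 6.47% of all tested genes were called, 3.89% higher and 2.59% lower. The difference of effects, 30 h minus 6 h, was -1.82 ± 0.17 for Id2 (edgeR adjusted p = 8.35e-05) and -0.96 ± 0.14 for Id1 (adjusted p = 0.00105), so both ID genes were further below DMSO at 30 h. These calls of Id1 and Id2 held in all 16 alternatives that give this contrast. For Id3 it was -0.91 ± 0.21 (adjusted p = 0.0220), for Bmp2 -1.75 ± 0.45 (adjusted p = 0.0332) and for Bmp4 0.76 ± 0.20 (adjusted p = 0.0345). Bmp4 thus had the opposite sign to the others and was closer to its vehicle level at 30 h than at 6 h as a ratio (2.15-fold against 3.63-fold lower). In CPM the gap was wider at 30 h, with means of 4.88 in BRM014 and 17.8 in DMSO at 6 h, and 15.9 and 34.1 at 30 h.

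The calls of Id3, Bmp2 and Bmp4 depended on single libraries and on the scaling or test. With ribosomal protein scaling those of Id3 (-0.84, adjusted p = 0.0921) and Bmp2 (-1.69, adjusted p = 0.0680) ended. With limma-voom those of Bmp2 (-1.72, adjusted p = 0.0525) and Bmp4 (0.75, adjusted p = 0.0559) ended, as did that of Bmp4 with library totals (0.71, adjusted p = 0.0557). The Id3 call ended when DMSO 6 h replicate 1, BRM014 6 h replicate 2 or either BRM014 30 h library was left out (-0.94 to -0.71, adjusted p = 0.0699 to 0.125). The calls of Bmp2 and Bmp4 each ended in 7 of the 8 fits that left out a library. For Bmp2 these fits gave -1.95 to -1.45 (adjusted p = 0.0568 to 0.181), and the call stayed without DMSO 30 h replicate 1. For Bmp4 they gave 0.68 to 0.83 (adjusted p = 0.0560 to 0.134), and the call stayed without DMSO 30 h replicate 1 as well. For Bmpr1a (-0.15 ± 0.15), Smad6 (-0.30 ± 0.28) and Bambi (-1.63 ± 0.87) the difference of effects did not pass (adjusted p = 0.639, 0.608 and 0.328).

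Scaled by exon length, the order of the ID genes under the inhibitor changed. Lengths were the joined exons of GENCODE M21 on GRCm38, which need not be the annotation behind the counts. Id1 was highest in all groups, at 169 CPM per kilobase in BRM014 and 204 in DMSO at 6 h, and at 82.97 in BRM014 and 196.5 in DMSO at 30 h. Id2 was next in BRM014 (90.1 CPM per kilobase) and DMSO (146) at 6 h and in DMSO at 30 h (108), above Id3 at 59.9, 47.0 and 56.2 CPM per kilobase in the same 3 groups. In BRM014 at 30 h the order of these neighbours was turned, with Id2 at 20.1 and 17.5 CPM per kilobase and Id3 at 37.1 and 39.4 CPM per kilobase. The replicates of Id2 and Id3 did not overlap in any of the 4 groups. Without length scaling, mean CPM of Id2 was above that of Id1 in BRM014 (220 against 195) and DMSO (357 against 237) at 6 h. The same held in DMSO at 30 h (262 against 228), but not in BRM014 at 30 h (45.8 against 96.2). The order of Id1 and Id2 in the first 3 of these groups thus rests on the lengths used, 1160 bases for Id1 and 2438 for Id2.

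The other genes were lower by length. Bmpr1a averaged 12.5 CPM per kilobase in BRM014 and 12.9 in DMSO at 30 h. Bmp4 was at 7.08 in BRM014 and 15.2 in DMSO, so that the length-scaled levels of Bmpr1a and Bmp4 changed places between these groups. In mean CPM, Bmpr1a was above Bmp4 in both groups (79.5 against 15.9 in BRM014 and 81.7 against 34.1 in DMSO). The exchange thus rests on the lengths used, 6351 bases for Bmpr1a and 2248 for Bmp4. Smad6 averaged 4.28 CPM per kilobase in BRM014 and 5.23 in DMSO at 30 h, and Bmp2 0.579 in BRM014 and 1.30 in DMSO. Id4, Bmp7 and Bambi stayed at or below 0.130 CPM per kilobase in every library, and their order among themselves cannot be read at these counts.

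**Figure D3:**
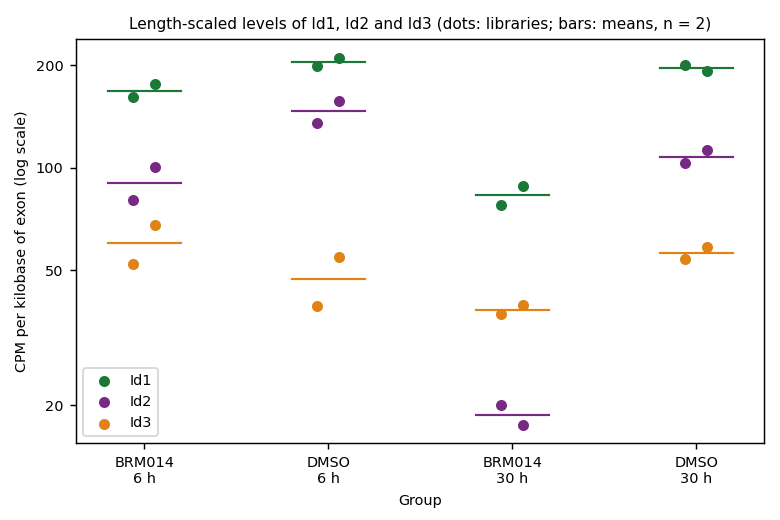
CPM per kilobase of exon on a log scale for Id1, Id2 and Id3 in each library (dots), with group means (bars). Id2 lies between Id1 and Id3 in 3 groups and below Id3, at 20.1 and 17.5, in BRM014 at 30 h.

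Time itself was compared within each treatment. These comparisons share libraries with those above and are set side by side only. Under BRM014, 4 of the 8 tested genes were called between 30 h and 6 h (1 higher and 3 lower), against 36.5% of all tested genes (19.6% higher and 16.9% lower). In DMSO 3 were called (2 higher and 1 lower), against 35.2% (18.0% higher and 17.2% lower).

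The log2 fold change of Id1 at 30 h over 6 h was -1.02 ± 0.10 under BRM014 (edgeR adjusted p = 1.15e-05) and -0.06 ± 0.10 in DMSO (adjusted p = 0.681). The sign in DMSO turned with library totals (0.03) and with scaling to ribosomal protein genes (0.18). Id2 fell by 2.27 ± 0.13 on the log2 scale under BRM014 (adjusted p = 2.16e-07) and fell by 0.44 ± 0.12 in DMSO (adjusted p = 0.0127). The DMSO call of Id2 ended when DMSO 6 h replicate 2 or DMSO 30 h replicate 1 was left out (-0.34 and -0.39, adjusted p = 0.0951 and 0.0551) and with ribosomal protein scaling (-0.21, adjusted p = 0.303). Id3 fell by 0.65 ± 0.15 under BRM014 (adjusted p = 0.00498) and was 0.26 ± 0.15 higher in DMSO (adjusted p = 0.194). The Id3 call under BRM014 ended when BRM014 6 h replicate 2 was left out (-0.45, adjusted p = 0.0776) and with ribosomal protein scaling (-0.35, adjusted p = 0.141). In DMSO, Id3 passed as higher with ribosomal protein scaling (0.49, adjusted p = 0.0486) and with the replicate block (0.27, adjusted p = 0.0483). It also passed there when DMSO 6 h replicate 2 was left out (0.51).

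Bmp4 rose in both treatments and Bmp2 in DMSO. Bmp4 was higher at 30 h by 1.70 ± 0.15 under BRM014 (adjusted p = 5.78e-06) and by 0.94 ± 0.13 in DMSO (adjusted p = 0.000196), and was lower in BRM014 than in DMSO at both times. Bmp2 rose in DMSO by 1.77 ± 0.32 (adjusted p = 0.00108), a 3.41-fold difference, whereas under BRM014 the value was 0.02 ± 0.31 (adjusted p = 0.967). The value for Bmpr1a was -0.01 ± 0.11 under BRM014 and 0.14 ± 0.11 in DMSO, and neither passed (adjusted p = 0.962 and 0.332). In DMSO it passed as higher with ribosomal protein scaling (0.38, adjusted p = 0.0459), and under BRM014 its sign turned with that scaling (0.30) and with library totals (0.03).

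Smad6 at 30 h over 6 h was -0.45 ± 0.20 under BRM014 and -0.15 ± 0.20 in DMSO, and did not pass (adjusted p = 0.0967 and 0.588). It passed as lower under BRM014 without the filter (-0.46, adjusted p = 0.0174) and with the replicate block (-0.43, adjusted p = 0.0294). It also passed when BRM014 6 h replicate 1 was left out (-0.74). The sign in DMSO turned with ribosomal protein scaling (0.09). Bambi was -0.16 ± 0.59 under BRM014 and 1.47 ± 0.64 in DMSO (adjusted p = 0.853 and 0.0902).

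**Figure D4:**
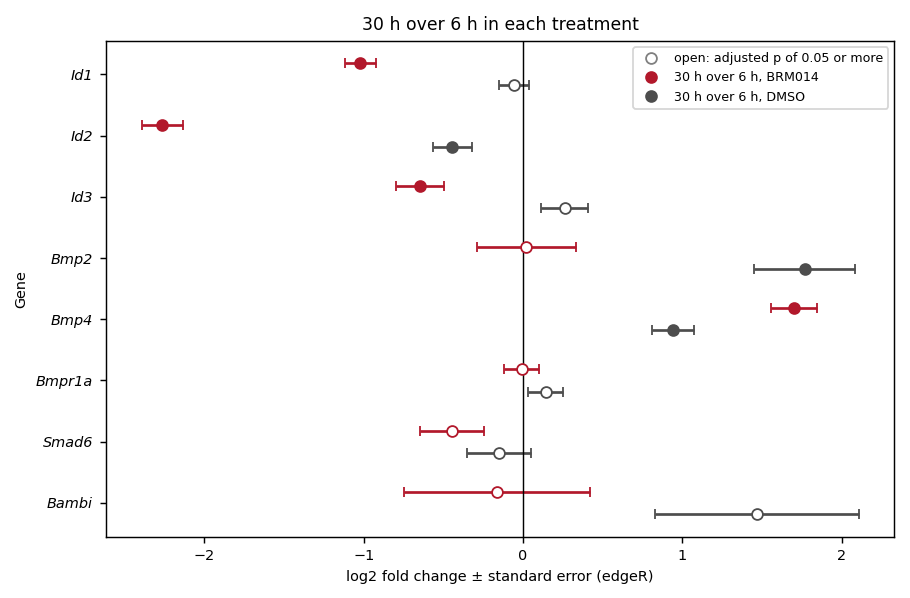
Log2 fold change of 30 h over 6 h (horizontal axis, ± standard error) in BRM014 (red) and DMSO (grey) for the 8 tested genes, with filled points for adjusted p below 0.05. Id1 lies at -1.02 in BRM014 and -0.06 in DMSO, and Bmp2 at 0.02 in BRM014 and 1.77 in DMSO.

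Among the 8 tested genes themselves, the patterns of Id3 and Smad6 over the 8 libraries were most alike, with a root mean square difference of 0.21 in log2 CPM centred on each gene's mean. Those of Id2 and Bmp4 were least alike (1.48). These distances all come from the same libraries and depths and are descriptions. They depend on the size of the changes as well as their shape, so genes that change little lie close together. Id1 differed by 0.40 from Id3, by 0.41 from Smad6 and by 0.63 from Id2. By the same measure over 9756 other genes, the genes near the pattern of Id1 included Hmgb3 (0.13) and Cdkn2c (0.14), and the pattern of Id2 was nearest to S100g (0.29), Lgals2 (0.30) and S100a4 (0.39), and that of Id3 to Mical2 (0.15), Crebzf (0.15) and Eml1 (0.16). The range of the gene itself over the libraries was 1.44 for Id1, 3.17 for Id2 and 0.86 for Id3. S100a4, for example, was at a mean of 102 CPM in BRM014 and 999 CPM in DMSO at 30 h.

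The rest of the pathway showed changes in both directions. Of 88 other genes listed for BMP signalling and the partners of ID proteins, 41 were tested. At 6 h, 5 were called higher and 9 lower, and 27 did not pass (34.1% called, against 23.8% of all tested genes). At 30 h, 5 were called higher and 12 lower, and 24 did not pass (41.5% called, against 35.9%). Their median log2 fold change was -0.20 at 6 h and -0.16 at 30 h. Of all tested genes, 9.35% were called higher and 14.4% lower at 6 h, and 16.8% higher and 19.1% lower at 30 h. These shares are the background for each list below, and with so few genes in a list its counts are descriptions only. None of the 11 other BMP ligand genes passed the filter, and the highest of them, Bmp6, had at most 13 counts in a library. The Alk1 gene Acvrl1 and the type I receptor gene Bmpr1b were also nearly absent, with 1 and 4 counts over all libraries.

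Of 7 tested receptor and co-receptor genes, 3 were lower at 6 h and, at 30 h, 3 were lower and 1 higher. The co-receptor gene Eng fell by 2.12 ± 0.60 on the log2 scale at 6 h (edgeR adjusted p = 0.0196) and by 1.73 ± 0.48 after 30 h (adjusted p = 0.0130). It had only 5 and 8 counts in BRM014 against 30 and 22 counts in DMSO at 6 h, and the 6 h call ended when DMSO 6 h replicate 1 or either BRM014 6 h library was left out (-2.35 to -1.87, adjusted p = 0.0976 to 0.122). At 30 h the Eng call ended when DMSO 30 h replicate 1 or BRM014 30 h replicate 2 was left out (-1.42 and -0.97, adjusted p = 0.0763 and 0.158), and the value was -2.74 when BRM014 30 h replicate 1 was. The type II receptor gene Bmpr2 rose at 30 h (0.80 ± 0.21, adjusted p = 0.00922), and the activin and BMP type II receptor gene Acvr2b fell (-1.07 ± 0.30, adjusted p = 0.0131). Leaving out BRM014 30 h replicate 2 ended the call of Bmpr2 (0.72, adjusted p = 0.0689), and leaving out BRM014 30 h replicate 1 ended that of Acvr2b (-0.81, adjusted p = 0.0843). At 6 h neither passed (0.13 ± 0.21 for Bmpr2 and -0.68 ± 0.29 for Acvr2b). The Bmpr2 value at 30 h was 0.43 when DMSO 30 h replicate 1 was left out and 1.34 when DMSO 30 h replicate 2 was.

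Of the 4 SMAD genes that carry the signal, 1 was lower at each time. Smad1, which encodes a SMAD phosphorylated by BMP receptors, was at 30.4 and 27.1 CPM in BRM014 and at 53.4 and 48.1 CPM in DMSO at 6 h. The groups were well apart, and Smad1 fell by 0.82 ± 0.12 on the log2 scale (edgeR adjusted p = 0.000257). At 30 h it fell by 0.41 ± 0.12 (adjusted p = 0.0174), a call that ended when DMSO 30 h replicate 1 or BRM014 30 h replicate 2 was left out (-0.37 and -0.29, adjusted p = 0.0674 and 0.162) and with ribosomal protein scaling (-0.28, adjusted p = 0.112).

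Of 8 tested genes of extracellular BMP antagonists and modulators, 1 was higher at 6 h, and 2 were higher and 2 lower at 30 h. Nbl1, which encodes a secreted DAN-family antagonist, was at 26.2 and 31.0 CPM in BRM014 and at 14.02 and 11.2 CPM in DMSO at 30 h. It rose by 1.19 ± 0.15 (edgeR adjusted p = 5.45e-05) at 30 h and was -0.03 ± 0.16 at 6 h, and the difference of effects passed (1.22 ± 0.22, adjusted p = 0.00484). Crim1, which encodes a transmembrane protein that binds BMPs, was higher in BRM014 than in DMSO at 30 h (0.77 ± 0.11, adjusted p = 0.000103). At 6 h its value was 0.02 ± 0.11. From 6 h to 30 h Crim1 fell in DMSO (-0.85 ± 0.11, adjusted p = 0.000122) and was -0.10 ± 0.11 under BRM014 (adjusted p = 0.515). The difference of effects was 0.75 ± 0.15 (adjusted p = 0.0100), a call that ended in 4 of 16 alternatives. Bmper, which encodes a secreted BMP-binding protein, fell at 30 h (-1.29 ± 0.23, adjusted p = 0.000609; -0.85 when DMSO 30 h replicate 1 was left out) and did not pass at 6 h (-0.45 ± 0.22, adjusted p = 0.152). It passed at 6 h without the filter (adjusted p = 0.0412), with the 4 libraries of the comparison (adjusted p = 0.0393) and when DMSO 30 h replicate 1 was left out (adjusted p = 0.0466).

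Of 12 tested intracellular regulators, 2 were higher and 2 lower at 6 h, and 1 was higher and 2 lower at 30 h. Smurf1 is a ubiquitin ligase gene whose product targets BMP SMADs. It was higher in BRM014 than in DMSO, by 0.58 ± 0.15 at 6 h (edgeR adjusted p = 0.0136) and by 1.08 ± 0.15 at 30 h (adjusted p = 0.000118). In DMSO, Smurf1 fell from 6 h to 30 h (-0.73 ± 0.15, adjusted p = 0.00294), a call that ended with ribosomal protein scaling (-0.48, adjusted p = 0.0511). Under BRM014 its value between the times was -0.23 ± 0.15 (adjusted p = 0.255). The 6 h call of Smurf1 ended when either DMSO 6 h library or BRM014 6 h replicate 2 was left out (0.46 to 0.61, adjusted p = 0.0611 to 0.143). The phosphatase gene Ctdsp2 was lower in BRM014 than in DMSO, by 0.52 ± 0.11 at 6 h (adjusted p = 0.00286) and by 1.01 ± 0.11 at 30 h (adjusted p = 8.00e-06). Its 6 h call ended without BRM014 6 h replicate 2 (-0.47). From 6 h to 30 h Ctdsp2 rose in DMSO (0.71 ± 0.10, adjusted p = 0.000304) and was 0.23 ± 0.11 under BRM014 (adjusted p = 0.114). Tob1, which encodes an antiproliferative protein that restrains BMP SMADs, fell by 1.01 ± 0.10 at 6 h (adjusted p = 1.04e-05) and was -0.26 ± 0.10 at 30 h (adjusted p = 0.0519). At 30 h Tob1 passed without the filter (adjusted p = 0.0464), with limma-voom (adjusted p = 0.0451) and with the replicate block (adjusted p = 0.0290). Its difference of effects was 0.75 ± 0.14 (adjusted p = 0.00589).

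Of 6 other tested genes known as BMP targets, 2 were higher and 1 lower at 6 h, and 1 was higher and 2 lower at 30 h, so calls among them went both ways. The homeobox gene Dlx3 fell by 1.48 ± 0.16 at 6 h (edgeR adjusted p = 2.60e-05) and, at 30 h, by 1.01 ± 0.16 (adjusted p = 0.000293). Its relative Dlx2 had 33 and 74 counts in BRM014 and 7 and 8 counts in DMSO at 6 h, and 15 and 85 counts in BRM014 and 6 and 7 counts in DMSO at 30 h. Dlx2 rose by 2.65 ± 0.60 at the first time (adjusted p = 0.00572) and by 2.56 ± 0.62 at the second (adjusted p = 0.00598). The Dlx2 call at 6 h ended when DMSO 6 h replicate 1 or BRM014 6 h replicate 2 was left out (2.57 and 2.12, adjusted p = 0.0526 and 0.0796). At 30 h it rested on BRM014 30 h replicate 2 (1.34, adjusted p = 0.174 when it was left out). Hey1, a helix-loop-helix repressor gene, fell at 30 h (-1.21 ± 0.33, adjusted p = 0.0109) and was -0.24 ± 0.30 at 6 h. The Hey1 call ended when replicate 1 of DMSO or of BRM014 at 30 h was left out (-0.99 and -1.01, adjusted p = 0.0676 and 0.0697).

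Among the partners of ID proteins, 1 of the 3 E protein genes was lower at each time. Tcf4 fell by 0.58 ± 0.16 at 6 h (edgeR adjusted p = 0.0203) and, at 30 h, by 0.76 ± 0.16 (adjusted p = 0.00280). Its 6 h call ended with ribosomal protein scaling (-0.53, adjusted p = 0.0632) and when any of the 4 libraries at 6 h was left out (-0.65 to -0.51, adjusted p = 0.0655 to 0.166). Of 16 class II helix-loop-helix genes, which pair with E proteins, only Twist2 passed the filter. Twist2 was at 4.46 and 3.28 CPM in BRM014 and at 13.98 and 13.3 CPM in DMSO at 6 h, and at 4.17 and 3.58 CPM in BRM014 and 26.5 and 20.4 CPM in DMSO at 30 h. It fell by 1.82 ± 0.21 at 6 h (adjusted p = 3.16e-05), and its log2 fold change at 30 h was -2.60 ± 0.20 (adjusted p = 6.27e-07).

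**Figure D5:**
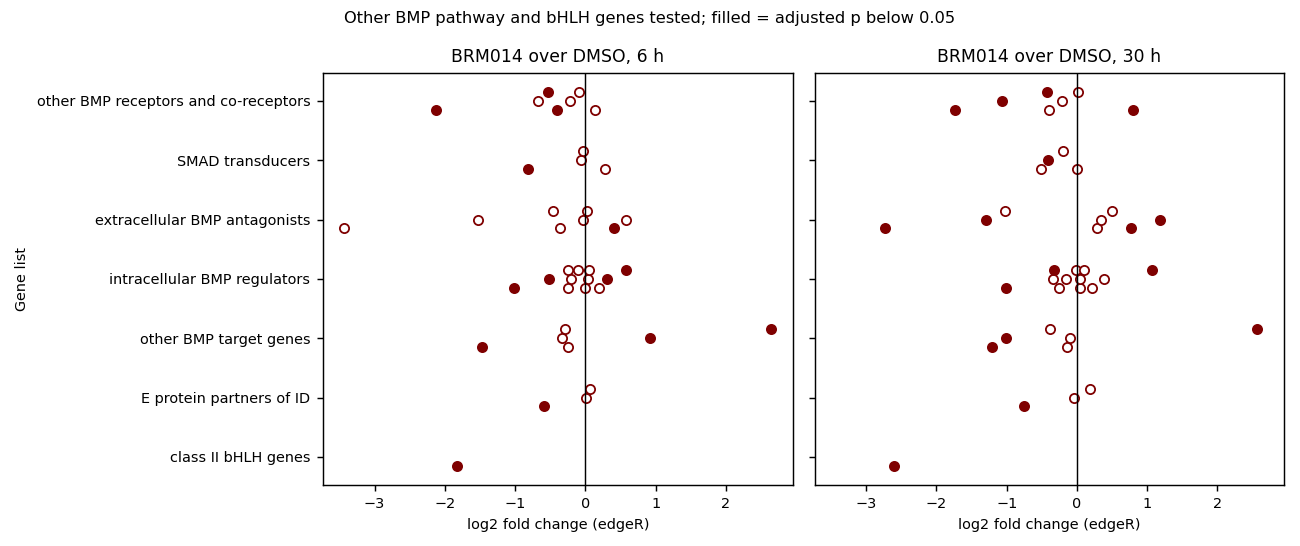
Log2 fold change of BRM014 over DMSO at 6 h (left) and 30 h (right) for the 41 other tested genes, 1 point per gene, by list, with filled points for adjusted p below 0.05. Filled points lie on both sides of 0 at 30 h among the receptors, antagonists, regulators and other targets, and the 1 tested class II helix-loop-helix gene, Twist2, lies at -1.82 and -2.60.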

How the data were processed

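The deposited file holds raw counts per gene for 8 libraries, with Entrez IDs and symbols. The authors made it, per the submitters' processing notes, with Subread, SAMtools 0.1.19 and featureCounts on build mm9, and the order, annotation and strand setting are not given in the sources used here. Per the labels' protocols, the libraries were stranded total RNA, read as single ends. The counts were whole, with totals of 17859693 to 29955366, and no normalization was seen in them.

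Genes were kept with filterByExpr (11835 of 21240), scaled with TMM (factors 0.935 to 1.05) and tested with edgeR 4.0.16 in R 4.3.3, in 1 quasi-likelihood fit of 4 group means leaving 4 residual degrees of freedom. All tests were 2-sided, with Benjamini-Hochberg adjustment over all tested genes in each comparison and 0.05 as the threshold. The standard error is the log2 fold change divided by the square root of the F value. The biological coefficient of variation was 9.30%. Replicates differed beyond sampling noise (a chi-square of 6.92 to 18.6 per degree of freedom), and each was counted as a separate sample. The procedure was tested on simulated data.

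The genes, the lists and the naming rule (all 10 genes; up to 3 called genes of each list with the smallest p; the 3 genes nearest to each ID gene, of which 1 is not reported here) were chosen with earlier results of these data known. As alternatives, DESeq2 1.42.0 and limma-voom (limma 3.58.1), other scalings and filters, fewer libraries and a replicate block were used.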

Additional observations from a re-analysis of the deposited data

Results flagged for a closer look

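The effect of BRM014 over DMSO differed between 30 h and 6 h for 5 of the 8 tested genes, by the edgeR test of the difference itself (30 h minus 6 h, log2 scale). Of all 11835 tested genes, 6.47% were called in this test, 3.89% higher and 2.59% lower. The values were -1.82 for Id2, -0.96 for Id1, -0.91 for Id3, -1.75 for Bmp2 and 0.76 for Bmp4, with adjusted p = 8.35e-05, 0.00105, 0.0220, 0.0332 and 0.0345. The calls of Id1 and Id2 held in all 16 alternatives that give this contrast. That of Id3 ended in 5 of them, and those of Bmp2 and Bmp4 in 9 each. In DMSO alone, Bmp2 and Bmp4 were higher at 30 h than at 6 h, by 1.77 and 0.94 on the log2 scale.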

How the results depend on the processing

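Each called difference of an ID or BMP gene kept its direction in every alternative that gave a value. Among called results of the 8 tested genes, 287 alternatives kept the call and 31 ended it, and among results that did not pass, 16 gained a call and 20 changed sign. The number of the 8 genes called at 6 h was 2. It was 3 without the filter, with DESeq2 and with the libraries of the comparison alone, and 4 with the replicate block. It also rose in some fits that left out a library. The number called for the difference of effects was 5, and 3 with ribosomal protein scaling, 3 with limma-voom and 2 to 5 when a library was left out. At 30 h, and between the times, no alternative moved the number called by over 1.5 times. The replicate numbers were not taken to pair the libraries, since the labels name nothing that a number shares and the correlations of same-numbered deviations, 0.12 to 0.20 for 5 pairs of groups, were 0.01 for the last pair; whether they share something was not settled. Calls gained with the replicate block were those of Id1 (-0.28, adjusted p = 0.0279) and Id3 (0.36, adjusted p = 0.0176) at 6 h, Tob1 at 30 h (-0.26, adjusted p = 0.0290), Id3 in DMSO (0.27, adjusted p = 0.0483) and Smad6 under BRM014 (-0.43, adjusted p = 0.0294) between the times. Calls over all genes with the block numbered 3354 against 2815 at 6 h, 4873 against 4248 at 30 h and 1237 against 766 for the difference.

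Calls over all genes for the difference numbered 351 to 921 with a library left out, and 1309 without the filter. At 6 h they numbered 1415 to 3144 with a library left out. In DMSO between the times they numbered 2331 to 4223 against 4167, and under BRM014 2227 to 4683 against 4317. With ribosomal protein scaling, the median of all genes was 0.05 at 6 h, 0.12 at 30 h, 0.24 for time in DMSO and 0.31 for time under BRM014. The share of called genes that was lower was 60.7% at 6 h (45.1% with library totals), 53.2% at 30 h (35.9% with ribosomal scaling), 48.8% for time in DMSO (34.1% with library totals, 14.5% with ribosomal scaling) and 46.3% for time under BRM014 (8.2% with ribosomal scaling).

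The signs that changed were all of values that did not pass. With a library left out, values at 6 h spanned -0.367 to 0.306 for Smad6, -0.0626 to 0.138 for Crim1, -0.0995 to 0.0340 for Nbl1 and -0.512 to 0.124 for Hey1. At 30 h they spanned -0.116 to 0.0425 for Bmpr1a, and for the difference of effects -0.590 to 0.0812 for Smad6. Under BRM014 between the times they spanned -0.188 to 0.280 for Bmp2, -0.0875 to 0.0683 for Bmpr1a and -0.585 to 0.286 for Bambi. Smad6 at 6 h was -0.0105 with limma-voom and -0.0148 with the replicate block. Nbl1 at 6 h was 0.0495 with library totals and 0.0248 with ribosomal protein scaling. That scaling gave Bmpr1a 0.0839 at 30 h and 0.298 under BRM014 between the times, Bambi 0.136 under BRM014, and Id1 0.177 and Smad6 0.0916 in DMSO between the times. Library totals gave Id1 0.0331 in DMSO and Bmpr1a 0.0341 under BRM014. The cause was not tested. Bambi and Dlx2 gave no value with the stricter filter, nor did Bambi with the 4 libraries at 6 h alone. Depth limits Id4, Bmp7 and Bambi, whose differences were not detectable at these counts.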
